A study of Homo sapiens with 64 samples.

Results

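The presentation of peptides by major histocompatibility complex (MHC) class I was followed through 9 genes, HLA-B, HLA-C, HLA-E, B2M, TAP1, TAP2, PSMB8, PSMB9 and NLRC5, of the 54127 genes listed in each count table. The genes were taken by name: each symbol matched 1 Ensembl identifier, and for the HLA genes this was the identifier on the primary chromosome 6. RNA was sequenced from 6 established human colorectal cancer cell lines, HT55 and SW948 (subtype CCS1), RKO and SW48 (CCS2) and DLD1 and HCT15 (CCS3), all grown as nonadherent spheroids with EGF and bFGF. Cells were stained with CFSE, a stain whose brightness falls as cells divide, and were sorted at day 6 into label-retaining cells (LRCs, CFSE high) and non-LRCs (the CFSE bulk), with 4 samples of each population per line and 48 in all. Another 16 unsorted control samples labelled DLD1 were either stained with CFSE or left unlabeled (DMSO) and were taken at day 1 or day 5, 4 per group; the study's methods give day 6 where the sample labels give day 5. Each line comes from a cancer and was grown outside its host, with no lymphocytes in the culture. Whether any of the lines share a donor is not given in the sources used here. The study's methods say that experiments were run in biological quadruplicate. Neither they nor the labels say whether the 4 samples of a group came from separate cultures. P-values therefore measure only the spread between these samples.

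Class I molecules show fragments of a cell's own proteins to CD8 T cells. Proteasomes cut the proteins, and under interferon the catalytic subunits PSMB8 and PSMB9 replace their constitutive counterparts to form the immunoproteasome. The TAP1-TAP2 transporter carries the peptides into the endoplasmic reticulum, where they are loaded on a heavy chain (HLA-B and HLA-C are classical chains, HLA-E a nonclassical chain that natural killer cells read through NKG2A) bound to the light chain B2M. NLRC5 is the transactivator that acts at class I promoters with RFX, CREB and NF-Y factors, and interferon gamma raises the whole set, in part through the factor IRF1. Loss of B2M is a known route by which colorectal tumors lose class I from their surface.

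On GRCh37, HLA-B (chr6:31321649-31334844, minus strand), HLA-C (chr6:31236526-31239907, minus), HLA-E (chr6:30457286-30461971, plus), TAP2 (chr6:32789610-32806516, minus), PSMB8 (chr6:32808494-32812456, minus), TAP1 (chr6:32812986-32821593, minus) and PSMB9 (chr6:32811913-32827628, plus) lie in the MHC region, B2M lies at chr15:45003556-45011049 on the plus strand and NLRC5 at chr16:57023397-57117443 on the plus strand. The annotated spans of TAP1 and PSMB9 overlap on opposite strands, and whether reads were counted by strand is not given in the sources used here, so reads from the shared part cannot be assigned. HLA genes differ between people and class I genes have near-identical copies. Reads of alleles far from the reference, or of stretches shared between copies, are lost by unique alignment. HLA levels between lines, and HLA levels beside those of other genes, are therefore uncertain. A comparison of the same gene within a line is between cells of the same alleles.

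The 250 bases before the start of HLA-B and HLA-C, of their partner B2M and of TAP1 are shown because the text below turns on these genes and because the elements through which NLRC5 partners and interferon act lie there. All are from RefSeq on GRCh38.p14, written 5′ to 3′ on the strand of the gene, HLA-B from chr6:31357180-31357429, HLA-C from chr6:31272093-31272342, B2M from chr15:44711267-44711516 and TAP1 from chr6:32853705-32853954. Capitals mark matches, on either strand, to the interferon-stimulated response element core GAAANNGAA, the gamma activated site TTCNNNGAA, the CCAAT box, or the cyclic AMP response element core TGACG.
HLA-B: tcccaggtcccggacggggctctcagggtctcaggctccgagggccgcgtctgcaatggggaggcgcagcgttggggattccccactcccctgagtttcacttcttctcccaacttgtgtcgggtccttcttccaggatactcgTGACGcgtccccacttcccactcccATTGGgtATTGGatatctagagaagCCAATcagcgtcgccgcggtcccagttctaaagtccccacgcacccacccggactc
HLA-C: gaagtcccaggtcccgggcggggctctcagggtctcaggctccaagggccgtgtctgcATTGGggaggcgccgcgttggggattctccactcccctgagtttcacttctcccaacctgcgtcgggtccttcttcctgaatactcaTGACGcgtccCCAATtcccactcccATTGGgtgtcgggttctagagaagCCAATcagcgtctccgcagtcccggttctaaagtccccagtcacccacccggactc
B2M: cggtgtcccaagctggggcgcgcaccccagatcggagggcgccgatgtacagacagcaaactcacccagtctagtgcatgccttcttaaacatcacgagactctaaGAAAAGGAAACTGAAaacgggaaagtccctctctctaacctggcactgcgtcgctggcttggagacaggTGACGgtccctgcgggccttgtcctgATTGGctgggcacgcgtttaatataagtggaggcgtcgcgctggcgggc
TAP1: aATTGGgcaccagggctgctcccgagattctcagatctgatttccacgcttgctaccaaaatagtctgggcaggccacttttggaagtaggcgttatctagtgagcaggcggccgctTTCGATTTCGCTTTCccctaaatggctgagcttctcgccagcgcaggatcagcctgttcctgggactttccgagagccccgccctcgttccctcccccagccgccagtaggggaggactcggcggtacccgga
HLA-B and HLA-C each hold TGACG followed by CCAAT boxes, and neither window holds a match to GAAANNGAA, the interferon-stimulated core as searched. Forms of the element that differ from this exact pattern were not searched, so no match does not mean that the element is absent. B2M holds 2 overlapping copies of that core as well as TGACG and a CCAAT box, and TAP1 holds 2 overlapping copies of the core on the opposite strand. Promoter entries were found for 7 of the 9 genes (9 windows, since TAP1 and PSMB8 have a second start); HLA-E and NLRC5 had none. The interferon-stimulated core was found in 3 of the 7 genes (B2M, TAP1 and TAP2) and in 6.88% of 35116 promoters of the same length, and the gamma activated site in 2 genes (second starts of TAP1 and PSMB8) and in 6.57%. The CCAAT box was found in 5 genes and in 32% of promoters, and TGACG in 6 genes and in 21.2%. A match is a description of letters, not a binding site.

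Between 12237225 and 20913455 reads per library fell on genes (median 15063858). Epithelial markers were present in every group. Their summed level was 218 to 332 CPM (read counts scaled to a common library size) in RKO, with EPCAM at 14.9 to 19.8 CPM, against 2440 CPM or more in every other sorted group. Leukocyte markers were low except LYZ in SW948 (1047 to 1650 CPM) and HT55 (40.3 to 91.9 CPM) and PTPRC in SW48 (7.50 to 22.3 CPM); PTPRC was at or below 0.0674 CPM in every other group. Some libraries went against their labels. Of 420 genes that separated the sorted non-LRCs labelled DLD1 and HCT15, each of the 16 control libraries labelled DLD1 was nearer to sorted HCT15 for 79% to 98.3%; CFTR, a chloride channel gene, was at 122 to 248 CPM in sorted DLD1, 0.125 to 0.55 CPM in the controls and 0.174 to 0.614 CPM in sorted HCT15. Which of these labels is wrong cannot be told apart, so the names DLD1 and HCT15 are used as labels only and the controls are tested only among themselves. In addition, 6 of 64 libraries were nearer to the other group of their pair (LRC and non-LRC, or day 1 and day 5) than to their own for over 50% of the genes that separated the pair without them. In 3 the share was over 80%, unlabeled day 1 sample 4 (84.2% of 2218 genes nearer to day 5), HT55 non-LRC sample 2 (89.7% of 300 genes nearer to LRCs) and SW948 LRC sample 4 (89.2% of 455 genes nearer to non-LRCs). In the other 3 it was lower, at 63.4% of 123 genes in HT55 LRC sample 2, 55.7% of 1299 genes in unlabeled day 5 sample 4 and 51.9% of 216 genes in HCT15 LRC sample 4. Results that rest on them are given with and without them. Leaving out a library because it stood nearer to the other group tends to widen the difference between those groups. Calls gained that way are no independent support.

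All 9 genes differed in level between the 6 lines in non-LRCs (edgeR quasi-likelihood F test, adjusted p from 1.48e-25 for B2M to 7.21e-06 for PSMB8), as did 98.3% of all genes tested, so the size of the spread and not the call is what distinguishes the genes. B2M ranged most, 35.0-fold between the highest and the lowest line mean, followed by HLA-B (11.3-fold), NLRC5 (5.20-fold), PSMB9 (4.79-fold), TAP2 (3.10-fold), HLA-C (2.63-fold), HLA-E (2.14-fold), TAP1 (1.96-fold) and PSMB8 (1.72-fold). All 9 were also called without DLD1 and HCT15, without HT55 non-LRC sample 2 and in the 24 LRC samples.

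B2M, the light chain, was at 1703, 1683, 1923 and 1620 CPM in the 4 HT55 non-LRC samples and at 54.5, 51.4, 46.6 and 45.3 CPM in those labelled DLD1. The order of means was HT55 (1732 CPM), RKO (552), SW948 (396), SW48 (133), HCT15 (83.5) and DLD1 (49.5), and no neighbours in that order overlapped. HLA-B was highest in SW48 (617, 486, 507 and 524 CPM) and lowest in DLD1 (52.2, 53.4, 40.2 and 43.3 CPM). In between stood HT55 (mean 405 CPM), RKO (298), HCT15 (273) and SW948 (79.1), and the only neighbours that overlapped were RKO and HCT15. The 2 lowest lines for HLA-B, SW948 and DLD1, thus come from different subtypes.

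HLA-C, the other classical chain, was higher in RKO (mean 634 CPM), HT55 (593) and SW48 (537), whose neighbouring ranges overlapped, than in SW948 (377), HCT15 (307) and DLD1 (241), which did not overlap. HLA-E followed a similar order, with HT55 (322 CPM) and SW48 (305) overlapping at the top, RKO (220), HCT15 (209) and SW948 (203) each overlapping the next, and DLD1 (150) alone at the bottom. NLRC5 was highest in HT55, at 43.8, 32.4, 42.3 and 49.5 CPM, and lowest in DLD1, at 9.29, 7.23, 7.84 and 7.93 CPM. SW48 (mean 21.5 CPM) and RKO (17.5) lay between without overlap, and HCT15 (13.1) overlapped SW948 (10.5). DLD1 was lowest for all 3 HLA genes, B2M and NLRC5.

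The processing genes were ordered otherwise. TAP1 was highest in HT55 (112 CPM), overlapped between RKO (90.2) and SW48 (88.0), and overlapped between DLD1 (57.9) and HCT15 (57.4) at the bottom. TAP2, its partner, was lowest in HT55 (12.9 CPM) and highest in RKO (40.1) and SW48 (39.3), which overlapped. PSMB8 was at 62.4 CPM in SW48 and at 36.3 to 45.7 CPM in the other 5 lines, each overlapping the next. PSMB9 was highest in RKO (14.2, 11.9, 18.9 and 15.1 CPM) and lowest in HT55 (2.08, 3.76, 4.48 and 2.21 CPM), and below RKO every line overlapped the next. HT55 thus had the highest means for B2M, HLA-E, TAP1 and NLRC5 and the lowest for TAP2 and PSMB9.

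**Figure D1:**
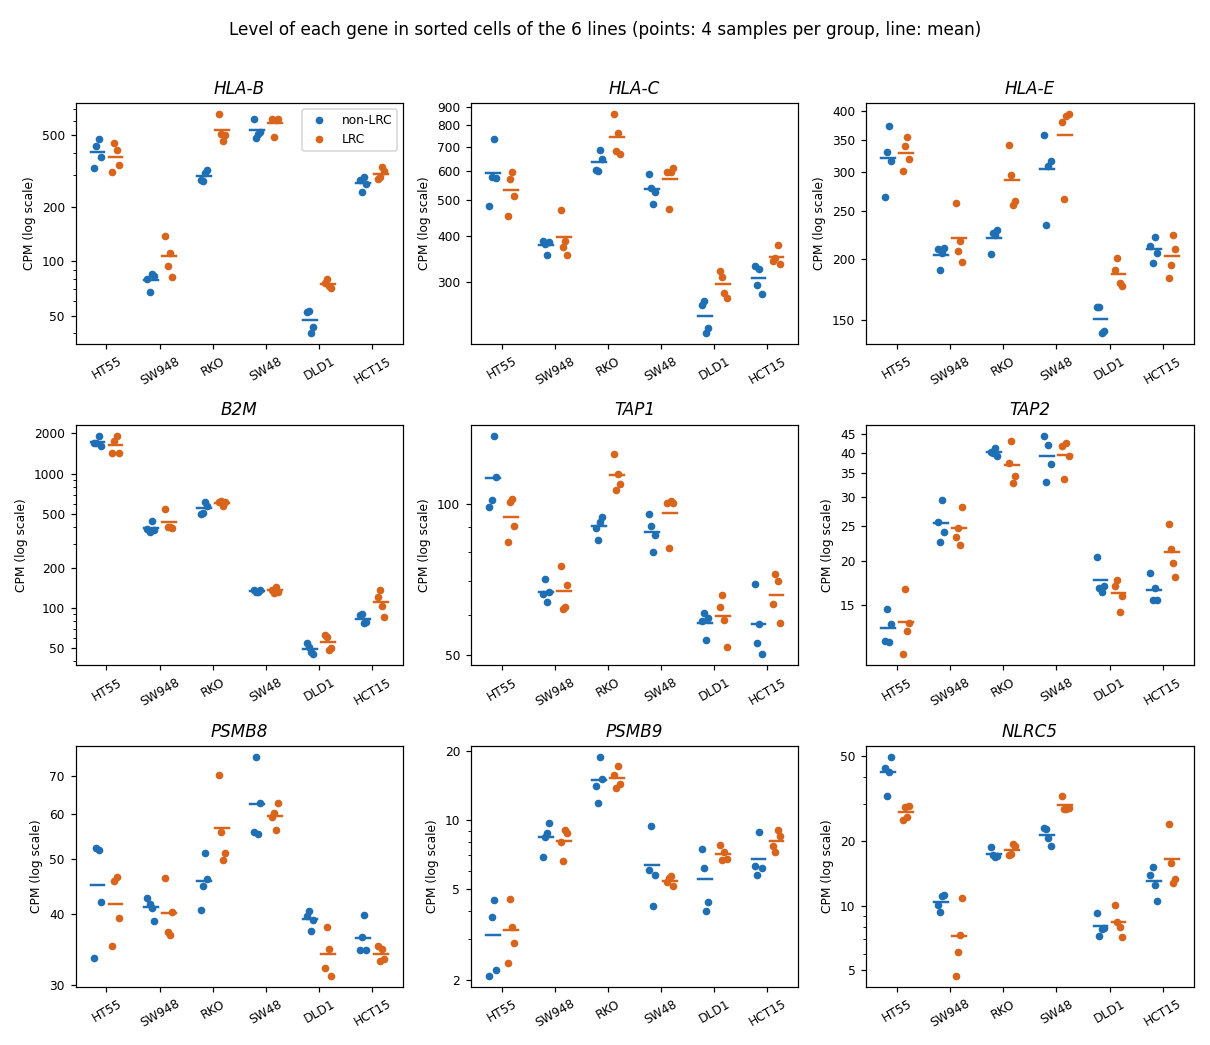
Level of each of the 9 genes (CPM, log axis) in sorted cells of the 6 lines, with 1 point per sample, 4 samples per group and a line at the mean, non-LRCs in blue and LRCs in orange. B2M spans 49.5 to 1732 CPM between line means of non-LRCs, and in RKO and DLD1 every LRC sample is above every non-LRC sample for HLA-B.

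Levels of different genes were compared per kilobase of exon (RPKM). HLA reads lost by unique alignment would place the heavy chains too low beside B2M, and the size of this loss was not measured. In HT55 non-LRCs the light chain B2M was at 555 ± 42.2 RPKM (SD, n = 4), above HLA-C at 236 ± 41.7, HLA-E at 110 ± 14.9 and HLA-B at 87.6 ± 13.8. In RKO and SW948, B2M (177 ± 17.5 and 127 ± 10.8 RPKM) lay below HLA-C (253 ± 16.3 and 150 ± 6.03 RPKM) and above HLA-B and HLA-E. In SW48, B2M (42.8 ± 0.958 RPKM) lay below all 3 heavy chains (104 to 214 RPKM). The same held in HCT15, where B2M was at 26.8 ± 2.11 RPKM and the heavy chains at 58.9 to 122 RPKM. In DLD1, B2M (15.8 ± 1.37 RPKM) lay below HLA-C and HLA-E (96.2 and 51.5 RPKM) and above HLA-B (10.2 ± 1.41 RPKM). Per length, NLRC5 was the lowest of the 9 genes in 5 lines, at 0.652 to 1.73 RPKM, and in HT55, at 3.39 RPKM, it lay above TAP2 and PSMB9. That rank turns with the length used, since by the longest transcript NLRC5 lay above PSMB9 in SW48 as well (3.15 against 2.38 RPKM). TAP1 (12.1 to 23.7 RPKM) lay above TAP2 (1.25 to 3.87 RPKM), and PSMB8 (10.4 to 17.9 RPKM) above PSMB9 (0.939 to 4.50 RPKM), in every line.

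**Figure D2:**
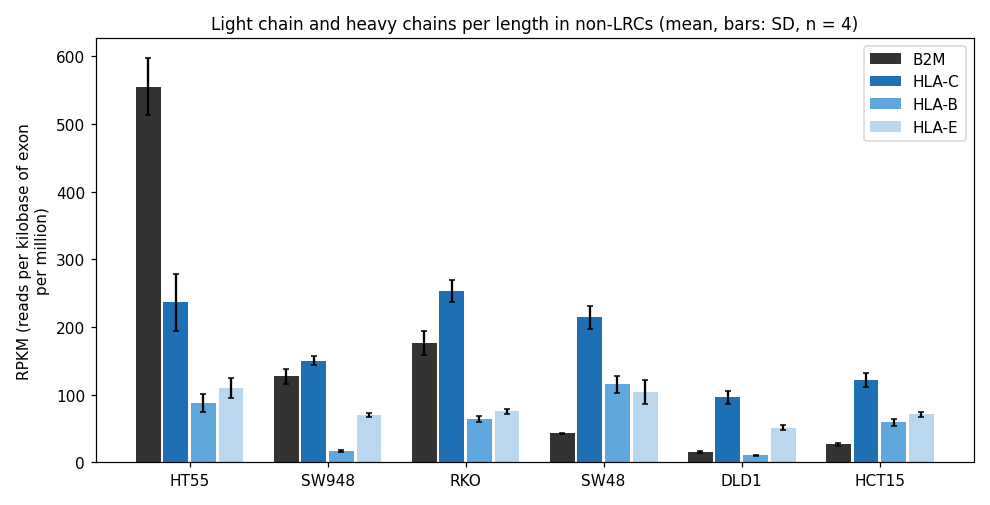
Mean level per length (RPKM, linear axis from 0) of the light chain B2M and the heavy chains HLA-C, HLA-B and HLA-E in non-LRCs of the 6 lines, bars with SD over 4 samples. B2M stands above the 3 heavy chains in HT55 (555 RPKM) and below all 3 in SW48 (42.8 RPKM) and HCT15 (26.8 RPKM).

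LRCs were compared with non-LRCs to ask which genes differ in the cells that retained dye. Across the 6 lines, 3 of the 9 genes were higher in LRCs and none lower, where 22.9% of all genes were called in either direction and 12.2% were higher. The 3 were HLA-B, HLA-E and B2M, 2 heavy chains and the light chain, and their changes were small. HLA-B rose by 0.35 on the log2 scale (SE 0.07, adjusted p = 0.000131), with 21 of 24 LRC samples above their line's non-LRC mean. HLA-E rose by 0.17 (SE 0.05, adjusted p = 0.0074), with 19 of 24 above. B2M rose by 0.13 (SE 0.05, adjusted p = 0.0424), with 18 of 24 above. HLA-C missed the threshold at a log2 change of 0.12 (adjusted p = 0.0569). The other 5, TAP1, TAP2, PSMB8, PSMB9 and NLRC5, had log2 changes from -0.03 to 0.07 with adjusted p of 0.26 to 0.859. The median over the 9 genes was 0.07, against 0.01 over all genes tested. Without DLD1 and HCT15, 16.3% of all genes were called and 2 of the 9, HLA-B and HLA-E; B2M was then at 0.05 (adjusted p = 0.582). HLA-B alone of the 9 was called without RKO (2378 of 16286 genes called) and likewise without DLD1 (2852 of 16457). Without HT55 non-LRC sample 2 and SW948 LRC sample 4, 25.7% of all genes were called, with the 3 genes and HLA-C (adjusted p = 0.0336) among them. Without HT55 LRC sample 2 and HCT15 LRC sample 4 as well, 25.6% were called and the same 4 of the 9.

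In these bulk libraries more cells expressing a gene and more RNA per cell cannot be told apart. Genes of S phase and mitosis were lower in LRCs for 4 of 10 across the lines, for 8 of 10 in RKO and for 7 of 10 in DLD1. The mitochondrial share of gene reads was higher in LRCs without overlap in RKO (7.01% to 10.5%, against 4.47% to 6.57% in non-LRCs) and in SW48 (13.8% to 14.2%, against 9.66% to 11.3%), and the ranges overlapped in the other 4 lines. The part of either in the changes of the 9 genes was not tested.

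RKO had the most calls. There 41.5% of all genes differed and 20.4% were higher, and 4 of the 9 genes were higher in LRCs and none lower. HLA-B was at 282, 277, 308 and 322 CPM in non-LRCs and at 655, 510, 468 and 504 CPM in LRCs. The groups did not overlap, and the log2 change was 0.82 (SE 0.10, adjusted p = 1.2e-05). HLA-E was at 204, 226, 223 and 228 CPM in non-LRCs and 342, 296, 258 and 263 CPM in LRCs, again without overlap (0.37, SE 0.09, adjusted p = 0.00297). TAP1 rose from 84.8 to 94.2 CPM in non-LRCs to 107 to 126 CPM in LRCs (0.31, SE 0.07, adjusted p = 0.00262). PSMB8 was at 40.7 to 51.2 CPM in non-LRCs and 49.8 to 70.4 CPM in LRCs, with a small overlap (0.29, SE 0.11, adjusted p = 0.0393). HLA-C (0.20, adjusted p = 0.0792), B2M (0.12, adjusted p = 0.267) and TAP2 (-0.14, adjusted p = 0.227) did not pass. Nor did PSMB9 (-0.002, adjusted p = 0.991) or NLRC5 (0.04, adjusted p = 0.739). The immunoproteasome subunit PSMB8 and the transporter subunit TAP1 thus passed while their partners PSMB9 and TAP2 did not; the differences between partners were not tested.

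In the cells labelled DLD1, 14.6% of all genes differed, 6.67% of all genes were higher, and 3 of the 9 genes were higher, the heavy chains. HLA-B was at 52.2, 53.4, 40.2 and 43.3 CPM in non-LRCs and at 76.2, 79.7, 73.1 and 71.2 CPM in LRCs, without overlap (0.68, SE 0.09, adjusted p = 0.00146). HLA-C was at 258, 265, 218 and 224 CPM in non-LRCs and 321, 309, 279 and 270 CPM in LRCs. HLA-E was at 159, 159, 141 and 142 CPM in non-LRCs and 189, 201, 178 and 176 CPM in LRCs. Neither overlapped (HLA-C 0.30, adjusted p = 0.028; HLA-E 0.32, adjusted p = 0.00827). Samples of the same number deviated together in this line, and with the number as a block 33.8% of all genes were called and 6 of the 9. The block added B2M (0.18, adjusted p = 0.00963), PSMB9 (0.39, adjusted p = 0.0342) and, in the other direction, PSMB8 (-0.19, adjusted p = 0.0168). PSMB8 was at 37.3 to 40.4 CPM in non-LRCs and 31.1 to 37.9 CPM in LRCs. Its log2 change was negative in DLD1, where it missed without the block (adjusted p = 0.0862), and positive in RKO. Without the block, the edgeR interaction of population and line did not pass for PSMB8 (adjusted p = 0.148).

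In the other 4 lines edgeR called none of the 9 genes without a block, where 0% of all genes were called in HT55 and in SW948, 0.796% in SW48 and 0.977% in HCT15. At an unadjusted p under 0.05, 2 of the 9 passed in HT55 (7.51% of all genes), 2 in SW948 (17.2%), 1 in SW48 (13.1%) and 3 in HCT15 (17.2%). DESeq2 called 1 in HT55 (0.276% of all genes), 0 in SW948 (1.82%), 1 in SW48 (2.74%) and 0 in HCT15 (3.86%). In HCT15 the numbers were taken to pair the samples. With the block 21.3% of all genes were called and 3 of the 9, B2M (0.41, adjusted p = 0.000469), HLA-C (0.20, adjusted p = 0.0361) and TAP2 (0.35, adjusted p = 0.00931). B2M was at 88.2, 90.1, 77.3 and 78.4 CPM in HCT15 non-LRCs and 120, 136, 104 and 86.4 CPM in LRCs. The lowest LRC sample lay within the non-LRC range, and each LRC sample was above the non-LRC sample of its number. Without HCT15 LRC sample 4 and without the block, 1.68% of all genes were called and B2M alone of the 9 (0.52, adjusted p = 0.043).

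NLRC5 had log2 changes of opposite sign in different lines. In HT55 it was at 43.8, 32.4, 42.3 and 49.5 CPM in non-LRCs and 25.2, 29.0, 26.0 and 29.3 CPM in LRCs, so every LRC sample was lower. The log2 change was -0.62 (SE 0.12, unadjusted p = 0.000348 in edgeR's test across all genes, adjusted p = 0.433). Without HT55 non-LRC sample 2, the library nearer to LRCs, 3.92% of all genes were called, and NLRC5 fell by 0.72 (adjusted p = 0.00249) as the only 1 of the 9. Without HT55 LRC sample 2 in its place, 0.323% of all genes were called and none of the 9, with NLRC5 at -0.65 (adjusted p = 0.0904). In SW948 it was at 10.1, 9.34, 11.1 and 11.2 CPM in non-LRCs and 4.73, 6.12, 7.34 and 10.9 CPM in LRCs, where the LRC sample that reached the non-LRC range was sample 4. The log2 change was -0.50 (SE 0.20, adjusted p = 0.232) with that library. Without it, 14.5% of all genes were called and 2 of the 9, NLRC5 (-0.77, adjusted p = 0.00565) and HLA-B (0.55, adjusted p = 0.00607, against 0.44 with it, adjusted p = 0.166). HT55 non-LRC sample 2 and SW948 LRC sample 4 were left out for their likeness to the other group, which favors calls. For NLRC5 they were also the samples of their groups nearest to the other group. The adjusted p-values without them are thus no independent support.

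SW48 went the other way. NLRC5 was at 23.2, 23.0, 20.7 and 19.1 CPM in non-LRCs and 32.6, 28.2, 28.3 and 28.7 CPM in LRCs, so every LRC sample was higher (0.45, SE 0.10, adjusted p = 0.0771). The numbers were taken to pair the samples in SW48. With the block 9.69% of all genes were called and NLRC5 passed (0.45, adjusted p = 0.00734), alone of the 9. In RKO (0.04, adjusted p = 0.739), DLD1 (0.07, adjusted p = 0.749) and HCT15 (0.35, adjusted p = 0.402) the NLRC5 ranges overlapped; in HCT15, LRC sample 1 was at 24.2 CPM and the other 3 at 12.7 to 15.8 CPM.

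The difference between lines was tested by an interaction of population and line, which called 14.3% of all genes and 3 of the 9. These were NLRC5 (adjusted p = 0.0012), HLA-B (adjusted p = 0.00124) and TAP1 (adjusted p = 0.0308). HLA-B changes ran from -0.09 in HT55 to 0.82 in RKO, and TAP1 changes from -0.25 in HT55 to 0.31 in RKO. Without DLD1 and HCT15, 11.4% of all genes were called, and NLRC5 (adjusted p = 0.000986), HLA-B (adjusted p = 0.0105) and TAP1 (adjusted p = 0.0247) passed as before. Without the 4 sorted libraries nearer to the other group, 27.2% were called and 5 of the 9, these 3 with B2M (adjusted p = 0.0327) and TAP2 (adjusted p = 0.0361). With the sample number as a block in every line, also in RKO and SW948 where the numbers did not pair, 33.6% of all genes were called and 8 of the 9, all but PSMB9 (adjusted p = 0.229). In SW948 the point estimates of NLRC5 and HLA-B had opposite signs, and with all samples neither passed in edgeR. They were -0.50 (adjusted p = 0.232) and 0.44 (adjusted p = 0.166), and -0.77 and 0.55 without LRC sample 4. Of the classical heavy chains, whose promoter windows are shown above, HLA-B passed with and without the block, and HLA-C passed with it (adjusted p = 0.0337) and missed without it (adjusted p = 0.216).

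**Figure D3:**
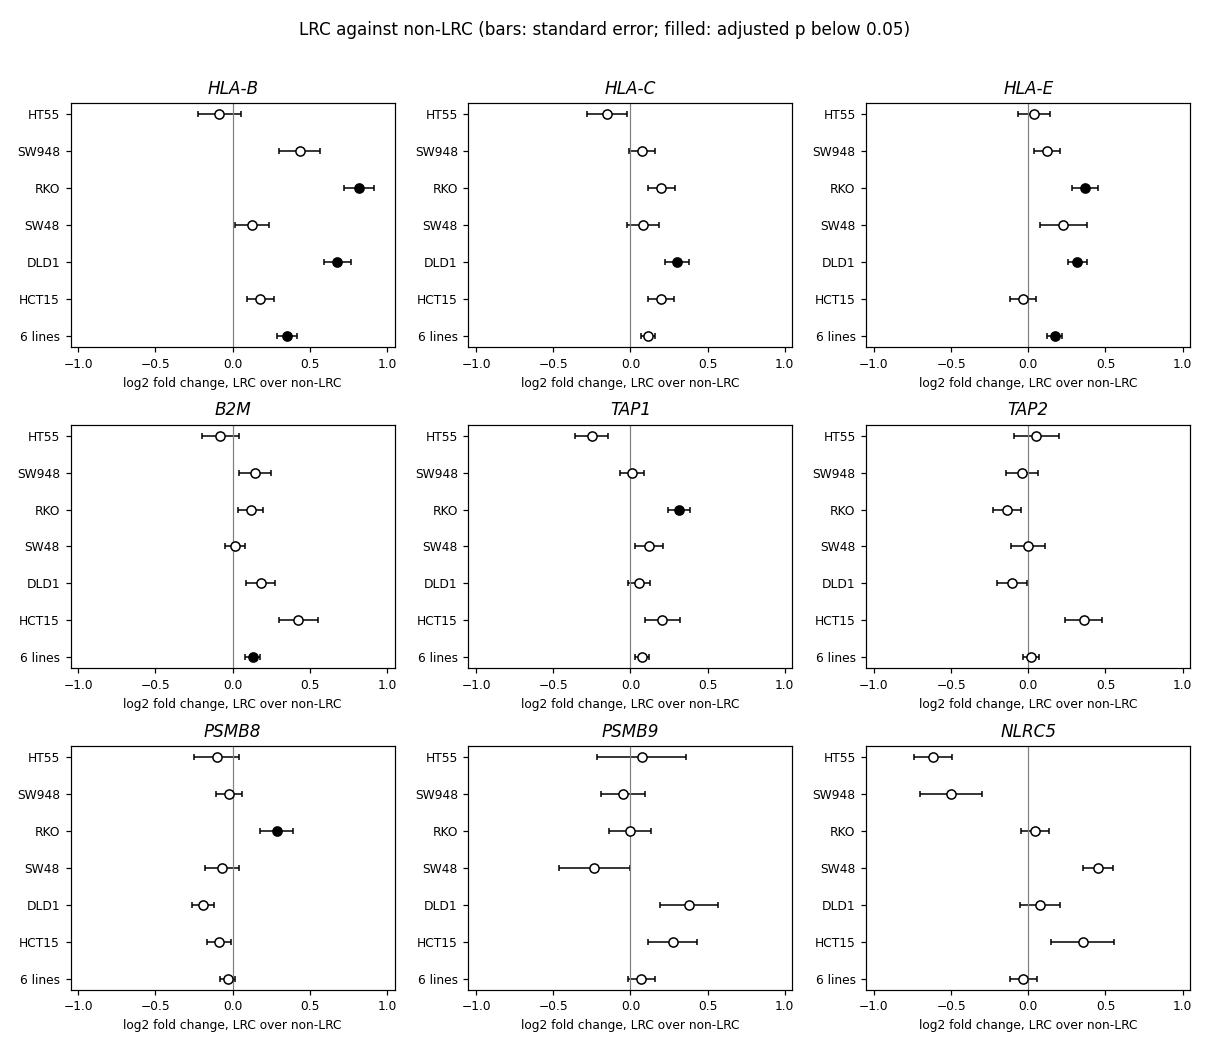
Log2 fold change of LRCs over non-LRCs for each of the 9 genes (x axis) in each line and across the 6 lines, with bars for the standard error and filled points for an adjusted p below 0.05. HLA-B is filled in RKO (0.82), DLD1 (0.68) and across the lines (0.35), and NLRC5 lies at -0.62 in HT55 and at 0.45 in SW48.

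The wider pathway was read through 73 other symbols in lists of class I chains, peptide loading, proteasome, transcription factors, interferon signaling, class II, NKG2D ligands and checkpoint ligands, some of which were chosen with earlier results known. Across the lines 15 of 73 (20.5%) were higher in LRCs and 10 (13.7%) lower, beside 12.2% and 10.7% of all genes. Interferon-stimulated genes accounted for 6 of the higher ones (6 of 19 tested, 31.6%, none lower, median log2 change 0.16 against 0.01 over all genes), led by GBP2, a guanylate-binding protein (1.29, adjusted p = 7.22e-07). MR1, the class I-like chain that shows vitamin B metabolites, rose by 0.46 (adjusted p = 5.89e-05), and IRF1 by 0.25 (adjusted p = 0.00109). RFXANK, a subunit of the RFX complex, fell by 0.20 on the log2 scale (adjusted p = 0.000222). Of the constitutive catalytic proteasome subunits, PSMB6 (-0.17, adjusted p = 0.00755) and PSMB7 (-0.13, adjusted p = 0.0249) fell and PSMB5 (-0.09, adjusted p = 0.079) did not pass. TAPBP (-0.06, adjusted p = 0.297) and PSMB10 (-0.14, adjusted p = 0.0889) did not pass.

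In RKO, 19 of 63 list genes (30.2%) were higher in LRCs and 18 (28.6%) lower, beside 20.4% and 21% of all genes. MR1 (1.19, adjusted p = 1.33e-07) and GBP2 (2.81, adjusted p = 4.99e-07) rose, and 10 of 17 interferon-stimulated genes (58.8%) rose and 2 fell. All 3 constitutive catalytic subunits fell, PSMB5 by 0.23, PSMB6 by 0.52 and PSMB7 by 0.52 on the log2 scale (adjusted p = 0.0338, 0.000732 and 0.000143), as did PSMB10, the third immunoproteasome subunit (-0.42, adjusted p = 0.0165). PSMB8 was the only 1 of the 3 immunoproteasome catalytic subunits that rose. CD274, the checkpoint ligand PD-L1, fell by 0.80 (adjusted p = 8.79e-07). IRF1 (-0.04, adjusted p = 0.811) and TAPBP (-0.08, adjusted p = 0.414) did not pass.

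In DLD1, 9 of 64 list genes (14.1%) were higher and 5 (7.81%) lower, beside 6.67% and 7.89% of all genes. IRF1 rose by 0.50 (adjusted p = 0.0049), MR1 by 0.44 (adjusted p = 0.00358) and IFIT1 by 1.10 (adjusted p = 0.00408), while OAS3 fell by 0.37 (adjusted p = 0.00328) and PSMB7 by 0.16 (adjusted p = 0.0371). Elsewhere 1 list gene was called in SW48, MR1 (0.53, adjusted p = 0.0327), and 1 in HCT15, the NKG2D ligand ULBP2 (1.04, adjusted p = 0.0333), and none by edgeR in HT55 or SW948. GBP2 was at 0.83 in SW948 (adjusted p = 0.133) and 1.80 in SW48 (adjusted p = 0.114), TAPBP at -0.27 in SW48 (adjusted p = 0.178), and the ISG15 and IFIT1 changes in HT55 were 1.0 and 1.90 (adjusted p = 0.507 and 0.57). TAPBP, PSMB10, PSMB5, PSMB6, PSMB7 and IRF1 passed in none of HT55, SW948, SW48 and HCT15. The change differed between lines for 18 of 73 list genes (24.7%, beside 14.3% of all genes), among them CD274 (adjusted p = 6.04e-05), MR1 (adjusted p = 0.000349) and PSMB7 (adjusted p = 0.0121).

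Among themselves, the 9 genes gave 36 pairs. Over the 6 line means the Pearson correlation of log2 CPM had a median of 0.643 and was positive for 30 pairs. Over the deviations of the 48 sorted samples from their group means it had a median of 0.376 and was positive for 32. These are descriptions, since pairs share lines, libraries and scaling. HLA-C and TAP1 went together at both levels (0.965 between lines and 0.83 within groups). NLRC5 went with HLA-B and HLA-E between lines (0.897 and 0.926) and in the other direction within groups (-0.327 and -0.291). Over the 12 sorted group means, the genes most like NLRC5 were TERF2 (0.927), TMEM117 (0.927), SRR (0.917), LRRC8A (0.916) and CDCP1 (0.911), of 11424 genes compared. Those most like the mean of the 9 scaled genes were SOX8 (0.956), EMP1 (0.947), MEPCE (0.945), ARC (0.944) and UAP1L1 (0.943).

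The unsorted controls labelled DLD1 show what time in culture and the dye do without sorting. They are described by their own groups, and the comparisons share samples. HLA-B in unlabeled cells was at 82.6, 83.8, 76.4 and 179 CPM at day 1 and at 233, 217, 206 and 204 CPM at day 5. With the dye it was at 119, 127, 73.3 and 76.2 CPM at day 1 and 174, 176, 157 and 168 CPM at day 5. Every day 5 sample was above every day 1 sample of the same staining, and the day 1 sample nearest to day 5 was unlabeled sample 4, the library that stood nearer to day 5 overall.

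In unlabeled cells 25.5% of all genes differed between the days (12.4% higher at day 5 and 13.1% lower), and 5 of the 9 genes were called. HLA-B (1.02, SE 0.24, adjusted p = 0.0102), HLA-E (0.79, SE 0.21, adjusted p = 0.0157), HLA-C (0.32, SE 0.10, adjusted p = 0.0278) and B2M (0.40, SE 0.14, adjusted p = 0.0494) were higher at day 5. On the log2 scale NLRC5 fell by 1.13 (SE 0.37, adjusted p = 0.0373), from 19.1, 20.5, 29.0 and 12.1 CPM to 4.40, 6.45, 10.7 and 15.1 CPM. Its ranges overlapped through day 1 sample 4 and day 5 sample 4. Without day 1 sample 4, 43.1% of all genes were called and 6 of the 9, with HLA-B at 1.41, HLA-E at 1.08, NLRC5 at -1.31 and TAP2 now at -0.56 (adjusted p = 0.0128). Without day 5 sample 4, 29.6% were called and the same 5 of the 9, with NLRC5 at -1.48 (adjusted p = 0.0125). Leaving out all samples numbered 1, 2 or 3 in turn gave 0 calls among the 9 and 0 among all genes.

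In CFSE-labeled cells 39.3% of all genes differed between the days (20.2% higher at day 5), and 3 of the 9 genes were higher and none lower. PSMB8 was at 9.53, 13.3, 21.4 and 22.3 CPM at day 1 and at 33.8, 34.4, 32.9 and 38.2 CPM at day 5 (1.03, SE 0.19, adjusted p = 0.000748). PSMB9 was at 1.34, 2.19, 3.44 and 2.19 CPM at day 1 and at 5.33, 6.19, 4.96 and 5.71 CPM at day 5 (1.24, SE 0.27, adjusted p = 0.00225). Neither gene overlapped between days, and HLA-B rose as well (0.73, SE 0.24, adjusted p = 0.0218). NLRC5 was at 11.9, 9.84, 24.7 and 25.9 CPM at day 1 and 7.84, 8.64, 14.1 and 10.2 CPM at day 5 (-0.85, adjusted p = 0.0766). The day 1 samples fell into 2 pairs, samples 1 and 2 against 3 and 4, for HLA-B (119 and 127 against 73.3 and 76.2 CPM), HLA-E (193 and 203 against 115 and 130 CPM), NLRC5 and PSMB8. The split held over all genes, where counts differed with a chi-square per gene of 5.94 and 4.09 within the pairs and 54.2 to 70.8 between them. Without unlabeled day 1 sample 4, which enters the shared estimate of spread, 44.1% of all genes were called and again 3 of the 9.

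The dye itself was compared at each day. At day 1, 21.8% of all genes differed and 12% were lower with CFSE, and 2 of the 9 genes were lower, PSMB8 (-0.76, SE 0.19, adjusted p = 0.0103) and PSMB9 (-0.94, SE 0.27, adjusted p = 0.0202). Unlabeled PSMB8 at day 1 was at 26.5, 27.9, 28.1 and 31.7 CPM, above all 4 CFSE samples. Without unlabeled day 1 sample 4, 18.7% of all genes were called, PSMB9 missed the threshold (-0.75, adjusted p = 0.0584) and HLA-E passed in the other direction (0.83, adjusted p = 0.00544; 0.55 with that sample, adjusted p = 0.0665). At day 5, 5.14% of all genes differed and 3.11% were higher, and TAP2 alone was called (0.76, SE 0.17, adjusted p = 0.0241). TAP2 was at 12.5, 12.97, 8.71 and 10.5 CPM in unlabeled and 22.9, 21.1, 15.7 and 16.5 CPM in CFSE-labeled cells, without overlap. Without unlabeled day 1 sample 4, 13.6% were called at day 5 and HLA-E joined TAP2 (-0.49, adjusted p = 0.0409). Without unlabeled day 5 sample 4, 0.111% of all genes were called and none of the 9, with TAP2 at 0.74 (adjusted p = 0.0648).

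Whether the effect of day differed with the dye was tested by their interaction, which called 0.999% of all genes and none of the 9 in edgeR; at an unadjusted p under 0.05, HLA-E, PSMB8 and PSMB9 passed with 17% of all genes, and DESeq2 called 1 with 4.75% of all genes. HLA-E was the farthest from 0 (-1.04, SE 0.29, adjusted p = 0.09). It was at 90.6, 98.5, 86.6 and 172 CPM in unlabeled cells at day 1 and 211, 189, 188 and 189 CPM at day 5, and at 133, 138, 137 and 150 CPM in CFSE-labeled cells at day 5. Without unlabeled day 1 sample 4, 5.81% of all genes were called and HLA-E passed (-1.33, adjusted p = 0.00382).

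**Figure D4:**
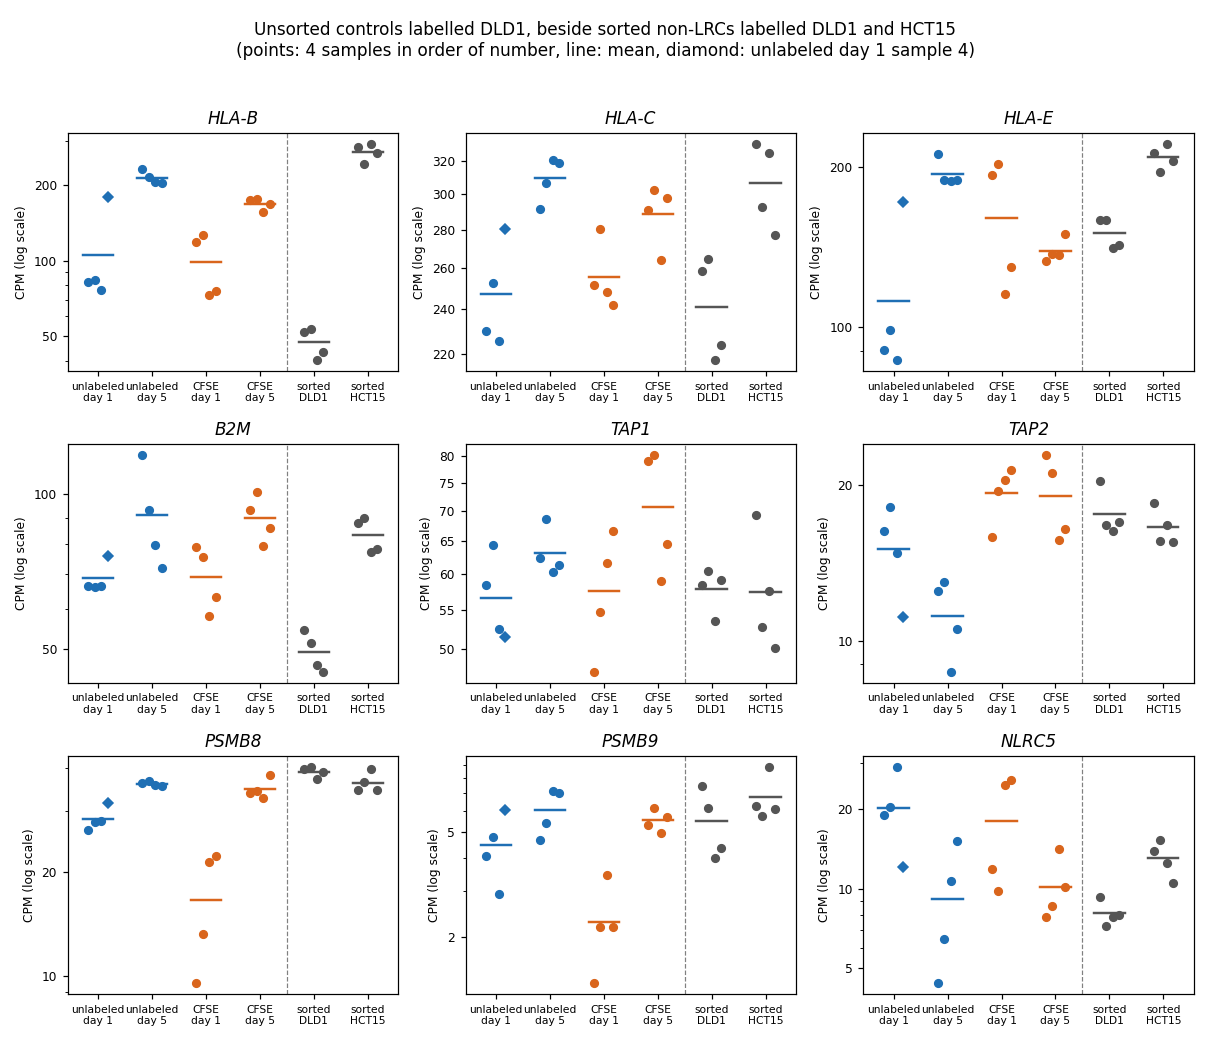
Level of each of the 9 genes (CPM, log axis) in the 4 groups of unsorted controls labelled DLD1, unlabeled in blue and CFSE in orange, with sorted non-LRCs labelled DLD1 and HCT15 in grey to the right of the dashed line, 1 point per sample in order of sample number and a line at the mean. The diamond is unlabeled day 1 sample 4, at 179 CPM for HLA-B where the other 3 samples are at 76.4 to 83.8 CPM.

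Beside the sorted cells, HLA-B means were 215 CPM in unlabeled and 169 CPM in CFSE-labeled controls at day 5, 273 CPM in HCT15 non-LRCs and 47.3 CPM in DLD1 non-LRCs. B2M means were 91.1 and 90.0 CPM in the same controls, 83.5 CPM in HCT15 and 49.5 CPM in DLD1. These were set side by side without a test because sorting differs between them. In addition, the controls and the sorted cells labelled DLD1 are unlike each other, and which label is wrong cannot be told.

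In the wider lists, day 5 was higher for 20 of 68 genes (29.4%) and lower for 2 (2.94%) in unlabeled cells, beside 12.4% and 13.1% of all genes. In CFSE-labeled cells it was higher for 34 (50%) and lower for 8 (11.8%), beside 20.2% and 19.1%. The proteasome activator subunit PSME1 rose in both (0.48, adjusted p = 0.00898, and 0.81, adjusted p = 0.000126). IFI6 rose in unlabeled cells (1.43, adjusted p = 0.00821). The loading chaperone CALR (0.67, adjusted p = 0.000143), PSMB10 (0.51, adjusted p = 0.0141) and PSMB5 (0.41, adjusted p = 0.0232) rose in CFSE-labeled cells. TAPBP, PSMB6, PSMB7 and IRF1 passed in neither. With the dye at day 1, 7 of 68 (10.3%) were higher and 19 (27.9%) lower, beside 9.73% and 12% of all genes, among the latter TAPBP (-0.52, adjusted p = 0.0476), PSMB10 (-0.49, adjusted p = 0.028), PSME1 (-0.68, adjusted p = 0.00115), CALR (-0.53, adjusted p = 0.00183) and HFE (-1.02, adjusted p = 0.00344), while PSMB7 was higher (0.42, adjusted p = 0.0344). With the dye at day 5, 2 (2.94%) were higher and 3 (4.41%) lower, beside 3.11% and 2.03% of all genes, among them MICB (0.78, adjusted p = 0.0275), IRF9 (-1.20, adjusted p = 0.0169) and FCGRT (-1.10, adjusted p = 0.0339). The interaction called OAS3 (1.22, adjusted p = 0.0412). Between day 1 and day 5 the share of reads on no annotated feature was 8.96% to 14.8% against 5.19% to 8.35%, and 4 of 10 S phase and mitosis genes were lower at day 5 in unlabeled cells while 6 of 10 were higher in CFSE-labeled cells; their part in these changes was not tested.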

How the data were processed

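RNA from 48 sorted and 16 unsorted samples had been extracted with a column kit for small inputs, made into TruSeq libraries and read as single ends of 50 bases. Per the labels and the study's methods, the authors aligned reads to hg19 with TopHat and counted reads per Ensembl gene with HTSeq. The deposited files hold these raw counts, 1 file per sample. Versions, gene annotation and use of strand are not given in the sources used here. Rows that name no gene (no feature, ambiguous, not unique) were left out of library sizes and tests. The no-feature row held 5.19% to 14.8% of gene, no-feature and ambiguous reads together. The row of reads without a unique place equalled 28.0 to 52.7 per 100 gene reads.

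Symbols were taken by Ensembl identifier, for 39260 of 54127 genes. Counts were scaled by TMM over all 64 libraries for levels (CPM, counts relative to TMM-adjusted library size), and RPKM divides CPM by the union of exons in GENCODE v44 lifted to GRCh37. A gene entered a test where 4 or more samples of the fit held 10 or more reads, and tests used edgeR 4.0.16 (quasi-likelihood, TMM, two-sided, Benjamini-Hochberg over all genes, threshold 0.05) in R 4.3.3, and SE is the log2 change over the square root of F. DESeq2 1.42.0, size factors, library size alone, no filter, replicate numbers as a block, 1 fit of 48 samples and leaving out samples or lines were alternatives. The code was tested on simulated counts. The members and the lists were chosen with earlier results of these data known, and the named genes are the 9 members, TAPBP, PSMB10, PSMB5, PSMB6, PSMB7, IRF1, the 3 list genes of smallest p per comparison and the 5 genes most like NLRC5 or the member mean; EPCAM, LYZ, PTPRC and CFTR were named as checks after their values were seen. Some items that this rule names are not reported here. Leaving out libraries that went against their labels, or DLD1 with HCT15, was chosen after seeing the data.

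Replicate numbers come from the sample titles. Same-numbered LRC and non-LRC samples deviated together from their group means in DLD1 (mean correlation 0.353, lowest 0.255), HCT15 (0.477, lowest 0.332), HT55 (0.349, lowest 0.221) and SW48 (0.377, lowest 0.187). Samples of different numbers had negative mean correlations there (-0.118, -0.159, -0.105 and -0.113). Deviations from a group mean cancel out, so a positive mean for same numbers brings a negative mean for different numbers. The negative means are thus no further sign of pairing. The highest correlations between different numbers were 0.371, 0.57, 0.251 and 0.221. In DLD1 and HCT15, samples 1 and 2 deviated together, as did 3 and 4, so the number alone does not set the pairs. The numbers were taken to pair the samples in these lines. In RKO (lowest -0.0909), SW948 (-0.0135) and the controls (-0.273) they were not. No 2 replicate libraries agreed within counting noise (lowest chi-square per gene 2.19).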

Additional observations from a re-analysis of the deposited data

Results flagged for a closer look

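Among 144 groups of 4 samples (9 genes in 16 groups), 10 held a highest or lowest sample that stood apart from the other 3 by Dixon's test at the 95% critical value, where chance gives about 7.2, or 1 in 20. In SW48, LRC sample 2 was low for 4 genes, HLA-B (492.2 CPM, the others 606.4 to 618.2), HLA-C (474.5 CPM, 595.1 to 612.6), HLA-E (264.4 CPM, 380.2 to 394.8) and TAP1 (81.56 CPM, 100.5 to 101.4). In the same group LRC sample 1 was high for NLRC5 (32.59 CPM, 28.2 to 28.66). Unlabeled day 1 sample 4 was high for HLA-B (178.8 CPM, 76.41 to 83.78) and for B2M (75.78 CPM, 66.15 to 66.41). Unlabeled day 5 sample 1 was high for HLA-E (211.5 CPM, 188.3 to 188.7). SW948 LRC sample 1 was high for B2M (545.5 CPM, 394.2 to 403.9), and DLD1 non-LRC sample 1 for TAP2 (20.43 CPM, 16.33 to 16.95).

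The LRC change differed between lines for NLRC5 (adjusted p = 0.0012, edgeR F test of 5 interaction terms, log2 changes from -0.62 in HT55 to 0.45 in SW48), for HLA-B (adjusted p = 0.00124, from -0.09 in HT55 to 0.82 in RKO) and for TAP1 (adjusted p = 0.0308, from -0.25 in HT55 to 0.31 in RKO).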

How the results depend on the processing

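Level differences between lines were called for all 9 genes under every alternative run, and HLA-B passed across the lines under each of them. Over all comparisons and alternatives no call changed sign. Of the calls reported, 321 values stayed past the threshold and 59 fell below it; of the values that missed it, 962 stayed, 56 passed and 51 changed sign. Numbers of the 9 genes called moved as follows, with all genes called of those tested in brackets. Across the lines they were 5 without HT55 (4051 of 16232), 1 without RKO (2378 of 16286) and 1 without DLD1 (2852 of 16457). In HT55, 1 gene (NLRC5) was called by DESeq2 (37 of 13385), with no filter (102 of 26261) and in 1 fit of 48 samples (106 of 16603). In SW948 it was 2 with no filter (973 of 27040) and 2 with the replicate block (501 of 13674). In SW48 it was 1 by DESeq2 (361 of 13195) and 1 with the block (1279 of 13196). In DLD1 it was 6 with the block (4591 of 13592) and 1 in the fit of 48 samples (646 of 16603). In HCT15 it was 3 with the block (2987 of 14017) and 1 in the fit of 48 samples (697 of 16603). The interaction of line and population called 8 with the block (5584 of 16603). In the controls, 3 were called between days in unlabeled cells with no filter (3347 of 30600) and 5 in CFSE-labeled cells with the block (6134 of 14518). The interaction of dye and day called 1 by DESeq2 (623 of 13109) and 1 with no filter (454 of 30600). Numbers did not pair in SW948, RKO or the controls, so block values there are given here only. The block changed no call in HT55 (0 of 13391) and in RKO left 3 (4739 of 12731). Next, each sample number, or a library nearer to the other group of its pair, was left out, with the range of all genes called in brackets. This gave 0 to 1 called in HT55 (0 to 808), 0 to 2 in SW948 (0 to 1956), 0 to 1 in SW48 (0 to 497) and 0 to 1 in HCT15 (0 to 233). It gave 1 to 5 for the interaction of line and population (522 to 4489) and 0 to 6 between days in unlabeled cells (0 to 6377). It gave 0 to 2 for the dye at day 1 (338 to 3384), 0 to 2 for the dye at day 5 (0 to 1967) and 0 to 1 for the interaction of dye and day (0 to 1068). In the controls, 0 came without number 1 or 2 for the dye at day 1 (775 of 14254 and 338 of 14310). The number was also 0 without number 1, 2 or 3 for days in unlabeled cells, the dye at day 5 and the interaction, where 0 of all genes were called. The dye at day 5 gave 1 without number 4 (1604 of 14236), 2 without unlabeled day 1 sample 4 (1967 of 14450) and 0 without unlabeled day 5 sample 4 (16 of 14466). B2M in HT55 was at 555 RPKM by exon union, 744 by longest transcript and 464 by library size alone. The causes of these moves were not tested beyond the samples, genes or lengths that each alternative changes.

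Sign changes were confined to log2 changes that missed the threshold. Across the lines these were NLRC5 at 0.104 without HT55 and 0.0503 without SW948, TAP2 at -0.0464 without HCT15, and without DLD1 and HCT15 TAP2 at -0.0388, PSMB8 at 0.0199 and PSMB9 at -0.0594. In RKO, PSMB9 was at 0.00159 by DESeq2, 0.00117 with size factors, 0.00501 with library size alone, 0.012 with the block and 0.0165 in the fit of 48 samples. In SW48, B2M was at -0.0521 with library size alone and -0.00151 with no filter, and TAP2 at 0.000107 with the block and 0.000565 in the fit of 48 samples. With no filter, B2M was at -0.00885 for the dye at day 1 and at 0.00582 for the interaction of dye and day. Leaving out samples gave these ranges: across the lines TAP2 -0.0371 to 0.0536; in HT55 HLA-E -0.0115 to 0.0697, TAP2 -0.068 to 0.124 and PSMB9 -0.11 to 0.269; in SW948 TAP1 -0.0439 to 0.0739, TAP2 -0.134 to 0.0796, PSMB8 -0.071 to 0.0128 and PSMB9 -0.12 to 0.031; in RKO PSMB9 -0.056 to 0.0681. In SW48 they were B2M -0.0299 to 0.0356, TAP2 -0.0257 to 0.0616, PSMB8 -0.117 to 0.0326 and PSMB9 -0.423 to 0.0116, and in HCT15 HLA-E -0.0691 to 0.0201. In the controls they were TAP2 -0.299 to 0.0433 between days with CFSE. For the dye at day 1 they were HLA-B -0.291 to 0.433, B2M -0.0469 to 0.135, TAP1 -0.0633 to 0.154 and NLRC5 -0.531 to 0.0835, and at day 5 B2M -0.121 to 0.0936 and PSMB9 -0.276 to 0.00457. For the interaction of dye and day they were B2M -0.236 to 0.14, TAP1 -0.0818 to 0.252 and NLRC5 -0.0274 to 1.03.

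Summing counts over all identifiers of a symbol was not run, because each member had 1. PSMB9 had as few as 21 reads in a library, and its SE reached 0.29 between LRCs and non-LRCs and 0.37 in the controls. NLRC5 had an SE of 0.36 to 0.52 in the controls.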
